A study of Homo sapiens with 9 samples.

Results

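Of the 57176 different probes on a custom Agilent array, 10565 were designed against long non-coding RNA transcripts known only from transcript assembly. These are the custom probes whose name holds an identifier starting with TCONS_ and no Ensembl transcript identifier. Of them, 4232 were detected and are described here, where detected means well above background, as flagged by the scanner software, on at least 3 of 9 arrays. The rule reads the probe names and these flags. The arrays carried RNA from ALL-SIL, an established T cell acute lymphoblastic leukaemia (T-ALL) line, 96 h after electroporation according to most labels and 72 h according to the description field. The 3 groups received a control siRNA (Silencer Select Negative Control 1), *PHF6* siRNA1 or *PHF6* siRNA2, with 3 independent biological replicates each. The study used a *PHF6* siRNA from the Silencer Select range and an ON-TARGETplus SMARTpool, a mixture of siRNAs, and its text does not tie either product to the names siRNA1 and siRNA2. All groups were electroporated, the knockdown was transient, and every array came from a single cell line.

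*PHF6* encodes a chromatin-associated zinc finger protein that is recurrently lost in T-ALL. Long non-coding RNAs are transcripts that are processed much like messenger RNAs but do not encode a known protein. Many are restricted to few cell types and present at low level, and some act on transcription or chromatin near their own locus. An assembler joins overlapping RNA-seq reads into transcript models and numbers them with the prefix TCONS_, so such a transcript has a structure and a number but often no name, no known function and little independent evidence.

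Each of the identifiers in this class was carried by 1 probe. A single probe therefore stood for a transcript, without a second probe to check it. Of the 4232 detected probes, 4230 had 1 identifier in their name and 2 had a pair. The array files pair these probes with neither gene names, positions nor probe sequences, so most members are known here by number. RefSeq lists 32 of the probes' identifiers as synonyms of a named gene, and 16 of these probes were detected. The match rests on identical identifiers and assumes that the array and RefSeq number the same set of assembled transcripts, which could not be checked here. Of the 16, only TCONS_00017722 passed the test of both siRNAs against control that is described below. It is listed as LINC01163 on chromosome 10, between *MKI67*, which encodes the proliferation marker Ki-67, and *MGMT*, which encodes a DNA repair enzyme. The 300 bases around the RefSeq start of LINC01163 are shown because it is the member past this test whose locus can be located. They lie on the plus strand of GRCh38.p14 at chr10:128285700-128285999, from 250 bases before the start to 50 bases after it.
LINC01163: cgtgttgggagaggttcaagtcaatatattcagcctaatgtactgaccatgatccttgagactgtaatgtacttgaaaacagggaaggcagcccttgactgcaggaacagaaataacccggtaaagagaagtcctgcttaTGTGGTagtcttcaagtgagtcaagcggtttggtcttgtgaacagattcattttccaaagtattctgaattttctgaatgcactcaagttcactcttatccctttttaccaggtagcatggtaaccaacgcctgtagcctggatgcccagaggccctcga
The capitals mark TGTGGT, letters found in RUNX motifs, at position -110 from the start. On either strand, 13.1% of the 35116 RefSeq promoter windows of this length hold these letters. The letters of a TATA box (TATAAA, in 11.5% of all windows), of a CCAAT box (the letters of its name, 34.6%), of a GC box (GGGCGG, 45.0%) and of a GATA motif (AGATAA, 10.3%) were not in the window on either strand. The window had 44.7% G and C against a median of 58.7% over all windows, and 20.0% of windows had less. The arrays measured nothing in this window, and a match of letters is not a binding site.

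The knockdown was visible on the arrays. On the VSN scale, which is close to log2 intensity and is used for all levels and differences here, the *PHF6* probe stood at 10.86 to 11.17 with control siRNA, 9.12 to 9.69 with siRNA1 and 9.14 to 9.28 with siRNA2. This was a fall of 3.31-fold (log2 difference -1.73, SE 0.09, limma adjusted p = 8.3e-05). All 11 T lineage markers that had a probe, *TLX1* and *CD3D* among them, were well above background on every array, with a summed level of 17.54 to 17.79 in control, 17.43 to 17.62 with siRNA1 and 17.47 to 17.53 with siRNA2, and 1 of the 11, *CD7*, fell (log2 difference -0.76). The summed level of the 4 NK markers was 15.13 to 15.26 in control, 14.71 to 14.89 with siRNA1 and 14.53 to 14.84 with siRNA2, *NKG7* and *GNLY* fell, and *NCAM1* and *KLRD1* were above background on 0 arrays. Among 6 B lineage markers, with sums of 12.54 to 12.97, 12.35 to 12.65 and 12.26 to 12.49 in the same order, *CD79B* fell and *BLNK* was above background on 0 arrays. Among the 4 stromal and epithelial markers, with sums of 8.47 to 9.05, 9.01 to 9.86 and 8.83 to 9.89, *KRT18* rose, and *COL3A1* and *EPCAM* were above background on 0 arrays. No marker of the monocyte (7.75 to 7.87, 7.71 to 7.89 and 7.67 to 7.91, *FCGR3A* above background on 0 arrays) or erythroid list (10.39 to 10.82, 10.22 to 10.76 and 10.19 to 10.55, *HBB* above background on 0 arrays) passed the test. The part of these markers in the results was not tested. The arrays of replicates 1 and 2 lay on one slide and those of replicate 3 on another, with every group on both slides.

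Detection of assembled transcripts was close to that of Ensembl lncRNAs and well under that of the other probes of the array, most of which target messenger RNAs. Of the 10565 probes, 4232 (40.1%) were detected and 2814 (26.6%) were well above background on all 9 arrays, whereas 5061 (47.9%) were so on none. The detected share was 42.7% of the 9636 custom probes named for Ensembl transcripts only, 30.1% of the 2789 named for both, and 71.4% of the 34134 other probes. Detection was largely a matter of all arrays or none, since 1418 members lay between 3 and 8 arrays and a further 1272 probes of the class on 1 or 2.

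The groups overlapped in the share of probes detected. The share of the 10565 probes above background was 35.9%, 32.2% and 37.9% on the control arrays of replicates 1, 2 and 3. It was 37.6%, 31.2% and 40.6% with siRNA1, and 37.6%, 40.3% and 36.6% with siRNA2. The lowest and the highest share both came from siRNA1 arrays, and no test was made over probes, because the probes of an array share it.

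The members were dim. Their mean level over the 9 arrays had a median of 5.75 with quartiles of 5.03 and 7.19. For detected Ensembl-only probes the median was 5.85, for probes with both names 5.52, and for other probes 8.59. The members' median per array lay between 5.67 and 5.85 on all 9 arrays, after a normalization that itself aligns the arrays. The SD between arrays of a group had a median of 0.24 over the members and of 0.21 over the other probes. Background was not subtracted before the VSN step. Undetected probes of the class with a RefSeq name reached 4.87, close to the members' lower quartile. The level of a dim member thus includes background, which can shrink its differences, folds and spread. Those of members and of brighter probes are not strictly comparable.

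Around the threshold, signals sat at the edge of background and single arrays could decide membership. Just inside it, TCONS_00024273 was flagged on 3 arrays and measured 5.01, 4.87 and 4.86 in control, 4.78, 5.34 and 4.73 with siRNA1, and 5.06, 5.20 and 4.83 with siRNA2. TCONS_00006840, also flagged on 3, stood at 7.65 on the siRNA1 array of replicate 2 and between 4.19 and 5.0 on the other 8 arrays. Just outside, TCONS_00016932 was flagged on 2 arrays and lay between 4.54 and 5.27. TCONS_00023440, flagged on 2 as well, read 7.40 on that same siRNA1 array and 4.23 to 4.88 elsewhere. High values in 1 array of a single group thus occurred on both sides of the threshold.

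The brightest members were clear of background everywhere and none of them passed the test. TCONS_00006556 had the highest mean level, 17.82, and measured 17.89, 17.88 and 17.79 in control, 17.81, 18.03 and 17.77 with siRNA1, and 17.81, 17.65 and 17.74 with siRNA2. The next by mean level were TCONS_00007198 (17.38), TCONS_00007197 (16.89), TCONS_00000095 (16.84) and TCONS_00000605 (16.83). Levels of probes with different sequences also depend on the probe, so this order is that of signals, not of transcript amounts. The log2 differences of the 5 between both *PHF6* siRNAs and control were -0.05 to -0.26, with limma adjusted p of 0.18 to 0.776. TCONS_00000095 and TCONS_00000605 read 17.11 and 17.11, 16.93 and 16.91, and 16.98 and 16.98 on the control arrays of replicates 1 to 3, so the pair gave nearly the same number on each of them.

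The central question was how these RNAs changed when *PHF6* was knocked down. Comparing both siRNAs with control, 119 of 4232 members (2.81%) passed a limma adjusted p of 0.05, with the replicate number as a block and adjustment over all 33595 probes tested. Over all probes the share was 2.74%, so the members were called about as often as the array as a whole. Of the 119, 95 were higher with the siRNAs (2.24% of members, against 1.85% of all probes) and 24 were lower (0.567% against 0.881%). Among members called higher, the log2 difference was 0.39 to 0.97 with a median of 0.56 (1.48-fold), and among those called lower it was -0.38 to -1.0 with a median of -0.58 (1.5-fold). These counts depended on the pairing and on single arrays. Without the replicate block limma called 0 members, with 353 at an unadjusted p under 0.05 in place of 981 (21.8% of all probes were under it with the block), and with the slide as a block it called 0, with 758. The count was 2 without control replicate 1, 1 without control replicate 2, 186 without control replicate 3, 34, 21 and 51 without siRNA1 replicates 1, 2 and 3, and 26 without siRNA2 replicate 1. Leaving out siRNA2 replicate 2 or 3 gave 90 and 129. The split also moved, to 50 higher and 40 lower without siRNA2 replicate 2, and to 5 and 5 without the filter on dim probes. Without all arrays of replicate 1, 2 or 3 the count was 4, 0 (893 at an unadjusted p under 0.05) and 112. The share called of all probes tested moved too. It was 0.00893% without the replicate block and 0.0714% with the slide as a block. Without control replicates 1, 2 and 3 it was 0.188%, 0.131% and 3.51%. It was 0.929%, 0.586% and 1.11% without siRNA1 replicates 1, 2 and 3, and 0.694%, 2.31% and 2.77% without those of siRNA2. Without all arrays of replicates 1, 2 and 3 it was 0.167%, 0.0149% and 2.0%, and 0.138% without the filter.

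Each siRNA alone gave fewer calls. siRNA1 against control called 43 members, which was 1.02% against 0.947% of all probes. Of these, 30 were higher (0.709% against 0.521%) and 13 lower (0.307% against 0.426%). siRNA2 against control called 74, or 1.75% against 1.64%, of which 59 were higher (1.39% against 1.06%) and 15 lower (0.354% against 0.58%). Both comparisons used the same control arrays. Both counts rested on single arrays. Without control replicates 1, 2 and 3, siRNA1 called 4, 1 and 100 members and siRNA2 called 0 (585 at an unadjusted p under 0.05), 1 and 119. Without siRNA1 replicates 1, 2 and 3 the counts were 8, 2 and 17 for siRNA1 and 24, 23 and 25 for siRNA2. Without siRNA2 replicates 1, 2 and 3 they were 40, 28 and 28 for siRNA1, and 0 (526 at an unadjusted p under 0.05), 41 and 23 for siRNA2. The excess of higher calls was not kept without siRNA2 replicate 2, where siRNA1 called 14 higher and 14 lower and siRNA2 called 18 higher and 23 lower. With only its own arrays and the controls in the fit, siRNA1 called 8 higher and 12 lower (0.452% of all probes were called). Over all probes the shares moved too. Without control replicates 1, 2 and 3 they were 0.107%, 0.0536% and 1.91% for siRNA1 and 0.107%, 0.0714% and 2.35% for siRNA2. Without siRNA1 replicates 1, 2 and 3 they were 0.164%, 0.0566% and 0.232%, and 0.705%, 0.613% and 0.637%. Without siRNA2 replicates 1, 2 and 3 they were 0.878%, 0.589% and 0.676%, and 0.0595%, 0.941% and 0.643%.

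Most members shifted by little, and the small shifts leaned upward. The log2 difference of both siRNAs from control had a median of 0.048 over the members, with 2557 above 0 and 1675 below (60.4% higher), whereas over all tested probes the median was -0.001 and 49.9% were higher. The middle 90% of members lay between -0.28 and 0.40, and that of all probes between -0.30 and 0.37. The same lean was present in detected Ensembl-only probes (0.042, 59.0% higher) and in probes with both names (0.043, 58.8%). The other probes leaned slightly downward (-0.016, 46.2% higher), so the upward lean was not particular to assembled transcripts. The other probes were also brighter (median level 8.59, against 5.75 for the members). Direction was not compared at equal level, so a lean of lncRNA probes cannot be told apart from one of dim probes. The size of the lean depended on the scaling and the filter. With normexp and quantile normalization the members' median was 0.002, with 51.0% higher. It was 0.03 with VSN on the processed signal (54.3% higher, median of all probes -0.059), 0.086 with scaling to the 75th percentile (61.7%) and 0.015 without the filter (53.6%). With a filter on all 9 arrays the members' median was 0.043 (58.8% higher, median of all probes -0.013).

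The lean came from replicates 1 and 2. Comparing each siRNA array with the control array of the same number, the members' median difference was 0.074, 0.087 and 0.008 in replicates 1, 2 and 3 with siRNA1. With siRNA2 it was 0.045, 0.084 and 0.002. In replicate 3, on the slide of its own, 50.9% and 50.4% of members were higher with siRNA1 and siRNA2, against 55.2% to 62.8% in replicates 1 and 2. Over all probes the median differences lay between -0.016 and 0.021. Counted by member, 565 were higher than the paired control in 6 of 6 comparisons (13.4%, against 10.7% of all probes) and 245 were lower in 6 of 6 (5.79% against 10.8%). The siRNA arrays lay wholly above the control arrays for 111 members (2.62% against 1.84%) and wholly below for 43 (1.02% against 2.07%). The filter favours rises here, because 174 members (4.11%, against 1.96% of all probes) were above background on 0 of 3 control arrays. These 174 passed only through the siRNA arrays, while 0 members were above background on 0 of 6 siRNA arrays. The 174 are kept in these counts and in the lean.

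The called members showed the same difference between replicates. Among the 95 called higher, the median difference was 0.66 in replicate 1, 0.57 in replicate 2 and 0.39 in replicate 3, and for 65 of them replicate 3 gave the smallest. Among the 24 called lower it was -0.62, -0.57 and -0.53, and replicate 3 gave the smallest for 10. Of those called higher, 94 moved in one direction in 6 of 6 comparisons, as did 22 of those called lower. The ranges of control and siRNA arrays nevertheless overlapped for 77 of the 119. The calls rest on these same paired differences, and the 6 comparisons share 3 control arrays. The agreement therefore follows largely from the selection and is no added support. These counts were not set beside those of all called probes.

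The members that rose most were TCONS_00000111, TCONS_00012342, TCONS_00010594, TCONS_00022623, TCONS_00026425, TCONS_00028249, TCONS_00006466 and TCONS_00016850, none of which has a RefSeq name. TCONS_00000111 measured 9.01, 9.81 and 8.93 in control, 10.03, 10.29 and 9.85 with siRNA1, and 10.87, 10.28 and 10 with siRNA2. All 6 siRNA arrays lay above the 3 control arrays, and the difference was 0.97 (SE 0.18, 1.96-fold, limma adjusted p = 0.0276). TCONS_00026425 measured 6.49, 6.51 and 6.49 in control, 7.61, 7.58 and 6.56 with siRNA1, and 7.79, 7.54 and 6.99 with siRNA2 (difference 0.85, SE 0.16, limma adjusted p = 0.03). Its groups did not overlap either, but the siRNA1 array of replicate 3 stood only just above the controls. TCONS_00006466 measured 11.63, 11.78 and 11.16 in control, 12.11, 11.87 and 12.09 with siRNA1, and 12.61, 12.52 and 12.97 with siRNA2 (difference 0.84, SE 0.16, limma adjusted p = 0.0276). Here the siRNA2 arrays were the highest and the siRNA1 array of replicate 2 was close to the controls. The difference was 0.50 with siRNA1 and 1.18 with siRNA2, and these did not pass the test between them (limma adjusted p = 0.329).

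In the other members that rose most, the control array of one replicate overlapped the siRNA arrays of another. TCONS_00012342 measured 7.32, 7.52 and 7.19 in control, 8.52, 8.81 and 7.34 with siRNA1, and 8.76, 8.63 and 7.46 with siRNA2. The rise of 0.91 (SE 0.18, limma adjusted p = 0.0353) was larger in replicates 1 and 2 than in replicate 3 with both siRNAs. So was that of TCONS_00016850 (7.29, 7.21 and 6.70 in control, 8.12, 8.58 and 6.93 with siRNA1, 8.36, 8.32 and 7.13 with siRNA2), with a difference of 0.84. TCONS_00022623 measured 8.02, 8.36 and 7.33 in control, 9.08, 8.99 and 7.90 with siRNA1, and 9.71, 9.30 and 7.58 with siRNA2 (difference 0.86). Its rise was largest in replicate 1, and the difference was 0.60 without that replicate. TCONS_00010594 rose in all replicates, from 8.96, 8.47 and 7.97 in control to 9.57, 9.73 and 8.79 with siRNA1 and 9.86, 9.38 and 8.76 with siRNA2 (difference 0.88, SE 0.12, limma adjusted p = 0.00914). TCONS_00028249 went from 7.08, 7.27 and 6.76 to 7.94, 8.22 and 7.19 and to 8.22, 8.35 and 7.36 (difference 0.84, SE 0.11, limma adjusted p = 0.00909). In these last 2, replicate 3 was the lowest in each group, and the groups overlapped. The rise of TCONS_00028249 was also smaller in replicate 3 than in replicates 1 and 2 with both siRNAs. The 8 members that rose most kept their sign in all 23 alternative fits and were past the threshold in 8 (TCONS_00022623) to 16 (TCONS_00010594) of them.

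By this match of identifiers, which could not be checked, LINC01163 was the 1 named locus among the calls. Its probe, TCONS_00017722, measured 9.71, 10.95 and 10.22 in control, 10.37, 11.23 and 10.93 with siRNA1, and 10.59, 11.46 and 11.17 with siRNA2. Replicate 1 was the lowest and replicate 2 the highest in each group, and each siRNA array exceeded its paired control, while the groups overlapped. The difference was 0.66 (SE 0.10, 1.58-fold, limma adjusted p = 0.0144), with 0.55 for siRNA1 (adjusted p = 0.0605) and 0.78 for siRNA2 (adjusted p = 0.0198). Of its coding neighbours, *MKI67* had a difference of 0.20 (SE 0.11, limma adjusted p = 0.31), and *MGMT* was well above background on 0 of 9 arrays. The rise of LINC01163 was past the threshold in 15 of the 23 alternative fits and positive in each.

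The members that fell most were TCONS_00017335, TCONS_00025806, TCONS_00019181, TCONS_00017336, TCONS_00007713, TCONS_00017068, TCONS_00014475 and TCONS_00014555, again without RefSeq names. TCONS_00025806 measured 8.92, 8.05 and 8.72 in control, 7.93, 7.23 and 8.01 with siRNA1, and 7.69, 7.65 and 8.02 with siRNA2 (difference -0.81, SE 0.13, 1.75-fold, limma adjusted p = 0.0186). TCONS_00019181 measured 11.37, 11.71 and 10.98 in control, 10.96, 10.66 and 10.23 with siRNA1, and 10.92, 10.63 and 10.33 with siRNA2 (difference -0.73, SE 0.12, limma adjusted p = 0.0179). TCONS_00017336 measured 10.45, 10.06 and 10.18 in control, 9.71, 9.34 and 9.65 with siRNA1, and 9.57, 9.28 and 9.64 with siRNA2 (difference -0.70, SE 0.09, limma adjusted p = 0.00839). In all of these the siRNA arrays lay below every control array, and both siRNAs gave a similar fall. TCONS_00017335, whose number is 1 below the last, went from 9.91, 9.52 and 8.93 to 8.93, 8.23 and 8.16 with siRNA1 and to 9.45, 8.71 and 8.29 with siRNA2 (difference -0.82, SE 0.11, limma adjusted p = 0.00876). Its groups overlapped, since replicate 1 was highest throughout. The 8 members that fell most were past the threshold in 9 (TCONS_00007713) to 17 of the 23 alternative fits, and each kept its sign.

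TCONS_00007713 and TCONS_00017068 fell within each replicate with overlapping groups. TCONS_00007713 measured 7.67, 6.66 and 7.01 in control, 6.90, 5.83 and 6.27 with siRNA1, and 7.23, 6.36 and 5.99 with siRNA2 (difference -0.68, SE 0.13, limma adjusted p = 0.0314). TCONS_00017068 measured 10.83, 10.09 and 9.72, then 10.10, 9.15 and 8.73, then 10.22, 9.84 and 9.18 (difference -0.68, SE 0.10, limma adjusted p = 0.0162). Its difference was -0.89 with siRNA1 and -0.47 with siRNA2, without passing the test between the siRNAs (limma adjusted p = 0.36).

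TCONS_00014475 and TCONS_00014555 gave nearly the same readings on every array. The former measured 7.54, 7.29 and 7.69 in control, 6.84, 6.71 and 7.04 with siRNA1, and 6.68, 6.71 and 7.06 with siRNA2 (difference -0.67, SE 0.09, limma adjusted p = 0.00894). The latter measured 7.56, 7.26 and 7.63, then 6.84, 6.77 and 7.0, then 6.70, 6.65 and 6.99 (difference -0.66, SE 0.09, limma adjusted p = 0.00914). The groups of both were separate, and at no array did the 2 probes differ by more than 0.07. Without the probe sequences, it cannot be told here whether such probes bind the same transcript.

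Other called members also had nearly the same profile, so the 119 calls are not known to be separate observations. A limit chosen after the values were seen was used to count them: members were called alike when their profiles, each centred on its mean, differed by less than 0.15 on every array. Of the 7021 pairs of called members, 10 were alike, which joined 16 members into 7 sets. The largest were TCONS_00014475, TCONS_00014555 and TCONS_00029387, which fell by 0.62 to 0.67 on the log2 scale, and TCONS_00025781, TCONS_00027277 and TCONS_00027278, which rose by 0.46 to 0.54. Among 13 pairs of called members whose identifiers differed by 1, 12 moved in the same direction. This was not compared with other pairs, and as 95 of the 119 calls were higher, most pairs would share a direction anyway. The exception among the 13 was TCONS_00000071 and TCONS_00000072. TCONS_00000072 had a difference of 0.61, whereas TCONS_00000071 went from 7.50, 7.23 and 7.03 in control to 6.94, 6.68 and 6.63 with siRNA1 and 7.22, 6.98 and 6.78 with siRNA2 (difference -0.38, SE 0.08, limma adjusted p = 0.0431).

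Some members were detected with the siRNAs and not in control. The filter favours this pattern, because there were 6 siRNA arrays and 3 control arrays. Of the 119 called, 97 were above background on all 9 arrays and 22 on 3 to 8, and 21 of these 22 were called higher. Over all members, 6 were above background on 6 of 6 siRNA arrays and 0 of 3 control arrays (0.142%, against 0.0446% of all probes), and 0 members had the opposite pattern. Among the called, 9 were above background on no control array. These passed the filter only through the siRNA arrays, so their calls are no independent sign of a rise, and without them 110 calls remained, 86 of them higher. For the 9, only a comparison with the background limit is given. It sets the siRNA mean against the mean, over control arrays, of the probe's own signal or of the lowest signal that counted as well above background on that array, whichever was higher. The ratios ran from 1.24-fold to 1.45-fold. They allow for neither the noise of the arrays nor the selection by the filter, so they are no evidence of a rise. TCONS_00028586, for example, measured 4.44, 4.18 and 4.66 in control, 5.12, 5.17 and 5.10 with siRNA1, and 4.87, 4.72 and 4.97 with siRNA2, a ratio of 1.42-fold. It was above background on 6 of 6 siRNA arrays.

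The siRNAs differed from each other in 2 members, 0.0473% against 0.0387% of all probes tested, with 1 member higher with siRNA2 (0.0149% of all probes were) and 1 lower (0.0238%). TCONS_00002202 measured 6.57, 7.16 and 6.71 in control, 4.87, 5.22 and 4.68 with siRNA1, and 6.36, 6.84 and 6.93 with siRNA2. The siRNA1 arrays stood alone at the bottom, and the siRNA2 arrays overlapped the controls. By the flag the siRNA1 readings were above background, but they lay close to it, which can limit the size of the fall. The difference from control was -1.89 with siRNA1 (limma adjusted p = 0.000897) and -0.10 with siRNA2 (adjusted p = 0.735), and siRNA2 exceeded siRNA1 by 1.79 (SE 0.14, limma adjusted p = 0.00422). In the joint comparison this member therefore had the largest fall among the calls, -1.0, although only siRNA1 passed the test against control. It was below the paired control in 5 of 6 comparisons, so it is not among the members listed above as having fallen most. TCONS_00029250 measured 5.38, 5.26 and 5.22 in control, 6.35, 6.44 and 6.14 with siRNA1, and 5.40, 5.37 and 5.51 with siRNA2. Here siRNA1 alone was high (difference 1.02, limma adjusted p = 0.00693, against 0.14 and 0.523 with siRNA2), and siRNA2 was lower than siRNA1 by a log2 difference of -0.88 (SE 0.11, limma adjusted p = 0.0356). Leaving out single arrays changed the count of 2 to between 1 and 11, the highest without siRNA1 replicate 3. It was 1 without any one of control replicates 1 and 2, siRNA1 replicates 1 and 2, and the 3 siRNA2 replicates. It was 0 without the whole of replicate 2 (545 members at an unadjusted p under 0.05) and without the replicate block (122). Over all probes the share called was 0.00893% to 0.0953% on leaving out single arrays, the highest also without siRNA1 replicate 3. It was 0% without the whole of replicate 2 and without the replicate block.

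The other 15 detected members with RefSeq names did not pass the test for both siRNAs, with log2 differences of -0.12 to 0.27 and limma adjusted p of 0.129 to 0.994. Of the 16, 15 were above background on every array. GLIDR, between *SPATA31A1* and *FOXD4L6* on chromosome 9, had a level of 9.04 ± 0.07 in control (SD, n = 3), 8.94 ± 0.18 with siRNA1 and 9.17 ± 0.20 with siRNA2. MICB-DT, between *MICA* and *MICB*, genes of stress-induced ligands for NK cells, had 8.43 ± 0.24, 8.33 ± 0.13 and 8.49 ± 0.19. LINC01222, between *PTPRC*, which encodes the leukocyte antigen CD45, and *NR5A2*, had 7.66 ± 0.24, 7.79 ± 0.12 and 7.54 ± 0.15. In these loci the ranges of mean ± SD overlapped between groups.

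COL1A2-AS1, between *BET1* and the collagen gene *COL1A2*, had the largest difference of the 15, 0.27 (SE 0.09, limma adjusted p = 0.129), with 6.83 ± 0.07 in control, 6.89 ± 0.23 with siRNA1 and 7.30 ± 0.21 with siRNA2 (SD, n = 3). FOXCUT, between *FOXF2* and *FOXC1*, had a difference of 0.20 (adjusted p = 0.292). FOXF2-DT, which overlaps *FOXF2*, stood at 5.41 ± 0.08 in control and 5.54 ± 0.54 with siRNA1. THRIL, an lncRNA described in the regulation of TNF that overlaps *BRI3BP*, had 5.24 ± 0.06 in control and 5.37 ± 0.24 with siRNA1. The others were CASC22, IATPR, LINC-ADAIN, LINC00901, LINC01152, LINC01232, LINC01374 and, above background on 6 of 9 arrays, LINC01415, with differences between -0.12 and 0.07. A separate list of *PHF6* partners, Notch pathway genes, T-ALL oncogenes and some T cell genes was looked through for neighbours, and 0 of the 16 lay next to or over a gene on it. *PTPRC*, beside LINC01222, is a T lineage marker used above but is not on that list.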

How the data were processed

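RNA of 9 samples, 3 per siRNA group, was hybridized to one-colour custom Agilent arrays. The authors deposited the fluorescence intensity of each spot from Agilent Feature Extraction (version 9.1 per the labels, 10.5.1.1 per the file headers) without normalization between arrays, with flags for spots well above background or outlying, and log2 values of these arrays after VSN. The model of VSN was fitted here to the median intensity without background subtraction (7 iterations of least trimmed squares, quantile 0.9), because the vsn package was not installed. Spots marked as outliers were left out of the levels but kept in the detection flags, and 18 members lacked a value on at least 1 array, none of them called. No spot was saturated.

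The filter (well above background on at least 3 of 9 arrays) left 33595 probes, which were fitted by limma 3.58.1 (R 4.3.3, with statmod 1.5.0 for the random block), with group and replicate number as fixed terms, Benjamini-Hochberg adjustment over all of them and a threshold of 0.05. The members and gene lists were chosen with earlier results of these data known. The replicate numbers come from the labels. Deviations from group means correlated at 0.31 to 0.75 across probes in the 9 pairs of arrays with the same number. In the 18 pairs with different numbers the correlation was -0.57 to 0.13. Over the members alone the ranges were 0.31 to 0.75 and -0.63 to 0.29. Deviations cancel within a group, which lowers the values for different numbers, and replicate 3 also had its own slide. The numbers were taken to pair the samples, which is an assumption. Named were, by rule, the 8 members with the largest rise and the 8 with the largest fall (past the threshold, detected on all arrays of the brighter side, same direction in 6 of 6 comparisons), the members called between siRNAs, the 5 brightest, 2 on each side of the detection threshold and those with a RefSeq name. Other named members were chosen after their values were seen. Names, neighbours and the promoter come from RefSeq (GRCh38.p14), matched by TCONS_ identifier. No coordinates of the array design were used. Markers were matched by transcript accession (25728 of 34134 probes other than the custom ones had a symbol, and *TRAC*, *LYZ* and *HBA1* had no probe matched), each gene by its brightest probe, and marker sums are log2 of summed unlogged values. The procedure was also run on simulated data. The planted changes were at least as large as the largest of a member called for both siRNAs against control. They were not placed in the dimmest probes. That run therefore does not cover small changes or dim probes. Precision is limited by how many arrays there are and by how far a signal exceeds background.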

Additional observations from a re-analysis of the deposited data

Results flagged for a closer look

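TCONS_00002202 was singled out because its change differed between the siRNAs, by 1.79 for siRNA2 minus siRNA1 on the log2 scale (limma adjusted p = 0.00422). Over 24 alternative fits this difference was 1.00 to 2.65 with adjusted p between 0.000234 and 0.187, and it was past the threshold in 19 of them. TCONS_00029250 was singled out on the same ground, with -0.88 for siRNA2 minus siRNA1 (limma adjusted p = 0.0356). Its difference was -1.21 to -0.48 over the 24 fits with adjusted p between 0.0069 and 0.324, and it was past the threshold in 5 of them.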

How the results depend on the processing

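For both siRNAs against control (119 members), siRNA1 (43), siRNA2 (74) and siRNA2 against siRNA1 (2), limma called 26, 5, 9 and 0 members with VSN on the processed signal (427 at an unadjusted p under 0.05 in the last), and 40, 8, 7 and 0 with scaling to the 75th percentile (433). It called 10, 3, 0 (1161) and 1 without a filter, and 221, 98, 142 and 10 with an intensity trend and a robust prior. Over all probes in each fit the shares called, in the same order, were 0.494%, 0.0833%, 0.131% and 0% with the processed signal. They were 0.81%, 0.113%, 0.158% and 0% with the 75th percentile, and 0.138%, 0.0577%, 0.0385% and 0.0035% without a filter. The trend and robust prior gave 5.67%, 2.54%, 3.78% and 0.149%. A filter on all 9 arrays gave 197, 65 and 126 (5.73%, 2.16% and 3.63% of all probes in that fit). A random replicate block gave 28 for siRNA2 (0.705% of all probes) and 9 between siRNAs (0.131%). Normexp with quantile normalization and the deposited values called 1 each between siRNAs (0.0268% and 0.0298% of all probes). With only the groups compared the counts were 20, 8 and 0 (570) for siRNA1, siRNA2 and siRNA2 against siRNA1. The shares of all probes there were 0.452%, 0.327% and 0.00298%.

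The numbers were taken to pair the samples. Without the replicate block the counts were 0, 1, 0 (266 at an unadjusted p under 0.05) and 0 (122), with 0 of the 16 members named for the largest changes. With the slide as a block they were 0, 2, 0 (646) and 1, and 0 of the 16. Leaving out arrays or replicate numbers gave 0 to 186, 1 to 100, 0 to 119 and 0 to 11, and 0 to 16 of the 16. Of those 16, 5 stayed past the threshold with the processed signal, 5 with the 75th percentile and 6 without a filter, and each kept its sign throughout. Of 439 alternative values of single named probes, 244 stayed past the threshold, 195 did not and 0 changed sign. Over all probes, the shares called in the 4 comparisons were 0.00893%, 0.00893%, 0.0119% and 0% without the replicate block. With the slide as a block they were 0.0714%, 0.0327%, 0.0327% and 0.0179%. On leaving out arrays or replicate numbers they ran from 0.0149% to 3.51%, 0.0268% to 1.91%, 0.00893% to 2.35% and 0% to 0.0953%.

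The members' median difference was 0.002 with normexp and quantile normalization, 0.03 with the processed signal, 0.086 with the 75th percentile, 0.015 without a filter, and 0.039 to 0.063 on leaving out arrays or numbers. Detection was 26.6% on all 9 arrays and 52.1% on at least 1. The median level was -3.05 on the scale of the 75th percentile, 5.97 in the deposited table and 6.59 for probes detected on all 9 arrays.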

Other observations

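Calls are given here by mean level, beside all tested probes at that level. Of 974 members with a mean level under 5, 10 were called for both siRNAs against control (1.03%, against 1.06% of all probes), as were 25 of 1382 between 5 and 6 (1.81% against 2.22%) and 40 of 1158 between 6 and 8 (3.45% against 4.16%). Between 8 and 10 it was 28 of 481 (5.82% against 3.78%), between 10 and 12 it was 14 of 163 (8.59% against 2.16%), and at 12 or above 2 of 74 (2.7% against 1.64%). These differences were not tested, and called members with nearly the same profile were counted separately. Between 10 and 12 they include TCONS_00001141 with TCONS_00002155, and TCONS_00025120 with TCONS_00025383. Among the probes of assembled transcripts with a RefSeq name, 16 were not detected, 15 of them on any array, and their levels lay between 3.10 and 4.87 on all arrays.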
